A study of Mus musculus with 12 samples.

Results

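Bone marrow cells selected for the surface protein B220 were compared between mice with both the Eµ-Myc and the Eµ-TTP-1 transgene and wild-type littermates. Of the 12 arrays of the series, 6 enter this comparison, 3 titled Eµ-Myc;Eµ-TTP-1 (Myc;TTP here) and 3 titled Wild Type, and the other 6 (3 Eµ-Myc, 3 Eµ-TTP-1) only help to estimate the spread between arrays. The genes compared are the 10287 of 18194 on the array that read above log2 4 on at least 3 of the 12 arrays, and each gene is represented by its brightest probe set over all arrays. A level below is a log2 intensity, a difference is Myc;TTP minus wild type in log2 units, and an error after ± is the standard error of the fit.

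MYC is a transcription factor that binds DNA with its partner MAX, mostly at the E-box CACGTG, and is known for driving ribosome production, nucleotide synthesis, metabolism and entry into S phase. Tristetraprolin (TTP, gene Zfp36) recognises AU-rich stretches near the 3' end of short-lived mRNAs, many of them for cytokines and growth-control proteins, and recruits deadenylases and the decay machinery. Pre-B cells of the marrow switch between rounds of division and a resting state in which they rearrange their antigen receptor genes, and the closely related ZFP36L1 and ZFP36L2 are known to act in that switch.

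All mice were littermates aged 4 to 6 weeks on a background that was 94% C57BL/6. Both transgenes are driven by Eµ, the enhancer of the immunoglobulin heavy chain, which is active in the B lineage from its early stages. The labels call the Myc;TTP mice precancerous. Cells were taken from the marrow by magnetic selection for B220, the CD45R form found on B cells and also on some plasmacytoid dendritic and natural killer cells. The labels call the 3 arrays of a group biological replicates and do not say whether each came from a separate mouse, so p-values measure the spread between these samples.

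The arrays numbered 3 stood apart from the rest. The array labelled wild type 3 lay beyond both other wild-type arrays on the Myc;TTP side in 2182 (84.9%) of the genes that were higher in Myc;TTP without overlap and in 1823 (86.2%) of those lower without overlap. Of the 6 arrays, the 2 numbered 3 read both Xist and Y-linked genes above log2 4, whereas the other 4 read Xist alone. Results are therefore given with all arrays and, where it matters, without the array labelled wild type 3. It was singled out by these same values, so leaving it out widens most of the differences by construction. Calls made without it show how the results depend on that array and are not further support. Over the tested genes the array medians ran from 9.14 to 9.29 in wild type and from 9.10 to 9.38 in Myc;TTP, and the median difference was 0.026.

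With all 12 arrays in 1 limma fit, 1 gene passed an adjusted p of 0.05 (0.00972% of genes tested), and it was lower in Myc;TTP. The next adjusted p was 0.0520, 1760 genes had one under 0.06, and 3908 genes (38.0%) had an unadjusted p under 0.05, 2396 of them higher in Myc;TTP and 1512 lower. Without the array labelled wild type 3 the same fit called 3091 genes (30.0%), of which 2129 were higher (20.7%) and 962 lower (9.35%). Leaving out the array labelled TTP 3 instead gave 2912 calls and leaving out Myc 3 gave 1625, although neither belongs to the groups compared. A fit of the 6 arrays alone called 1915 genes (18.6%), 831 higher (8.08%) and 1084 lower (10.5%). Of these, 1520 were also called without wild type 3, all in the same direction. Both fits use the same Myc;TTP arrays and share the remaining wild-type arrays. The direction of a gene called in both could therefore hardly differ, and the shared direction is not further support. The groups did not overlap in 4686 genes (45.6%). All 3 Myc;TTP arrays lay above all 3 wild-type arrays in 2570 genes (25.0%) and below them in 2116 (20.6%). A gene counted below as higher or lower without overlap belongs to these sets.

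**Figure D1:**
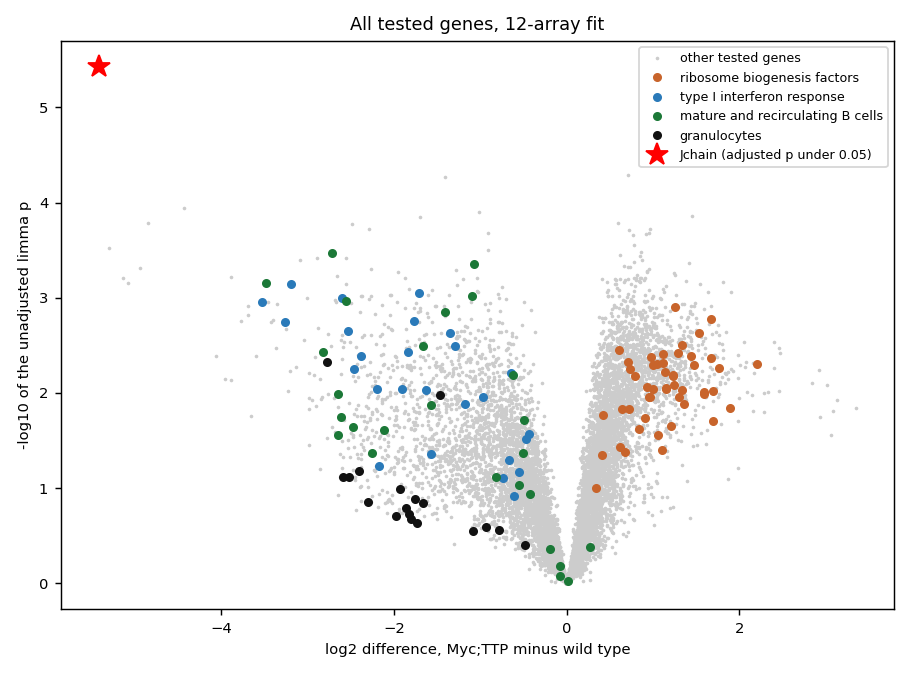
Each point is 1 of 10287 tested genes. The x axis is the log2 difference, Myc;TTP minus wild type, the y axis is -log10 of the unadjusted limma p with all 12 arrays, and colours mark 4 gene lists. Jchain (star) is the 1 gene past the adjusted threshold, ribosome biogenesis factors lie on the right and interferon response genes on the left.

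The transgenes themselves were checked first. Myc levels were 9.65, 9.68 and 12.65 in the 3 wild-type samples and 11.82, 12.73 and 13.37 with both transgenes. The array labelled wild type 3 thus lay within the range of the Myc;TTP arrays, and the groups overlapped. The array labelled TTP 3 read Myc at 13.47, against 10.05 and 10.39 in the other Eµ-TTP-1 arrays and 12.99 to 13.92 in Eµ-Myc, which goes against its label. Whether labels were exchanged or samples mixed was not tested. The Myc difference was 1.98 ± 0.95 (limma adjusted p = 0.150) and 2.97 ± 0.86 without wild type 3 (limma adjusted p = 0.0284). Zfp36, which encodes TTP, read 10.70, 9.80 and 9.84 in wild type and 7.47, 8.62 and 9.18 in Myc;TTP, so all 3 arrays with both transgenes lay below all wild-type arrays, by -1.69 ± 0.39 (limma adjusted p = 0.0520; 0.0147 without wild type 3). Whether this probe set reads the transgene's transcript is not given in the sources used here. The relatives Zfp36l1 and Zfp36l2 were lower without overlap too, by -1.25 ± 0.30 and -1.17 ± 0.33.

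B-lineage genes were read at high levels in all 6 arrays. Of 10 genes chosen to mark the B lineage, 9 had a probe set of their own and none of these was below log2 4. Cd79a, a signalling chain of the antigen receptor, read 14.83, 15.06 and 14.61 in wild type and 14.33, 14.13 and 14.40 in Myc;TTP. Ptprc, the gene of CD45 whose B220 form was used for selection, read 14.36, 14.40 and 14.00 and 13.68, 13.50 and 13.46. Genes of other marrow cells were also read on all arrays and are given with the results they accompany. In both groups the summed intensity of granulocyte markers was above that of B-lineage markers, so the samples did not hold B cells alone. Such sums cover different probe sets and do not give shares of cells.

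**Figure D2:**
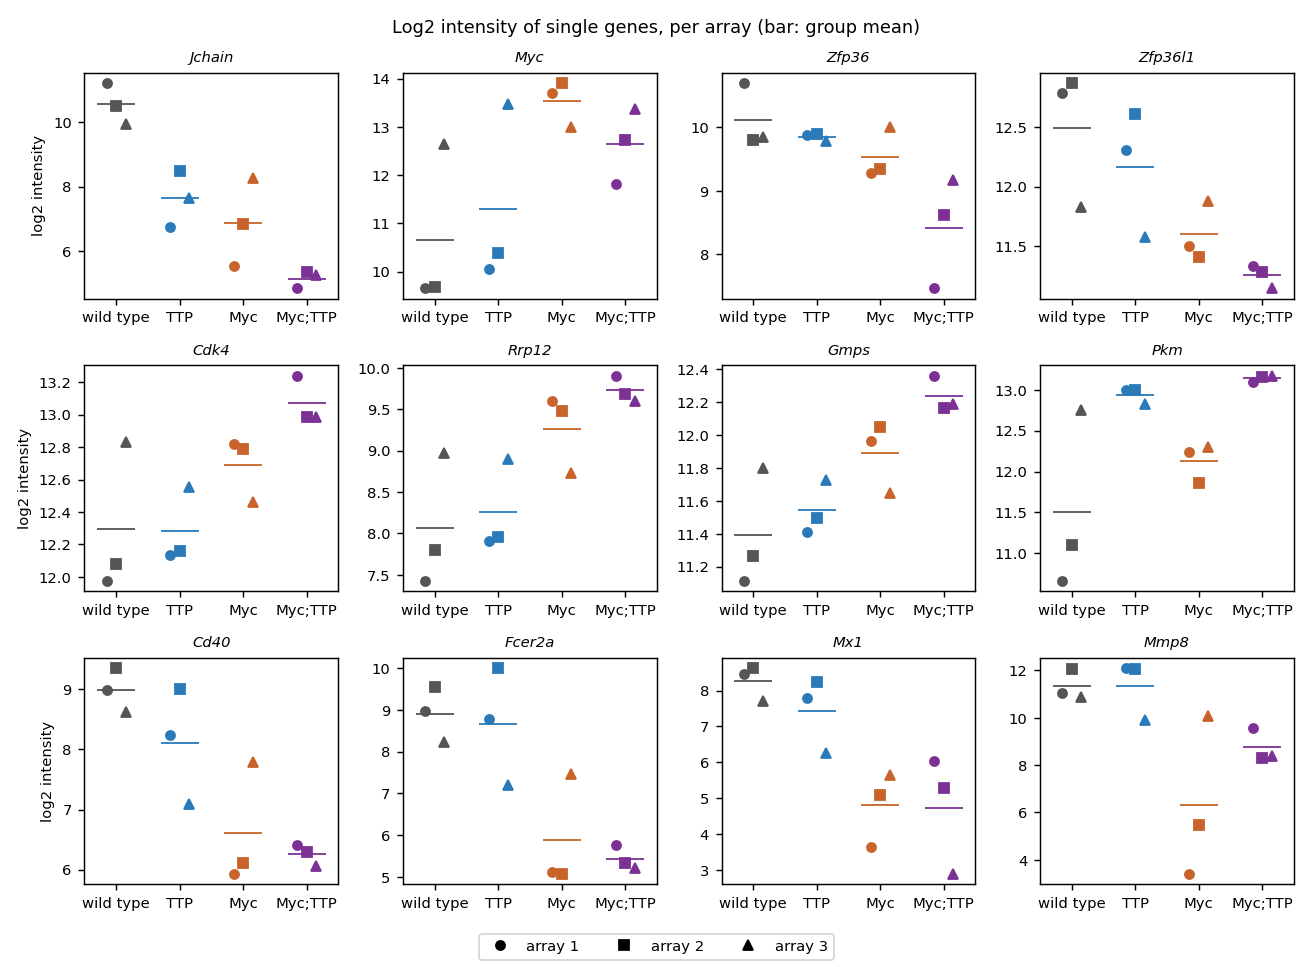
Each panel shows 1 gene. The y axis is the log2 intensity of its probe set, points are single arrays (circle, square and triangle for arrays 1, 2 and 3) and bars are the means of the 4 groups. In Jchain all Myc;TTP arrays lie far below all wild-type arrays, and in Myc the array labelled wild type 3 lies among the transgenic arrays.

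The gene that fell in the 12-array fit was Jchain, which encodes the chain that joins IgM and IgA into polymers and is made by antibody-secreting cells. It read 11.23, 10.50 and 9.95 in wild type and 4.85, 5.34 and 5.25 in Myc;TTP, a difference of -5.41 ± 0.63 (42.6-fold lower, limma adjusted p = 0.0386), and the groups were far apart. The call was lost when any single Myc;TTP array was left out, and also without wild type 1, wild type 2, TTP 1 or Myc 2. It was also lower in each single transgenic group, with differences of -3.67 in Eµ-Myc and -2.92 in Eµ-TTP-1, values that share the wild-type arrays. The constant region gene of IgA, Igha, was also far lower, with 13.10, 12.97 and 11.82 in wild type and 7.40, 8.82 and 8.40 in Myc;TTP. Its difference of -4.42 ± 0.75 (limma adjusted p = 0.0520) was matched by the other 2 Igha probe sets, at -4.49 and -4.16. Ighm, the IgM heavy chain, differed by -0.43 ± 0.15 in its brightest probe set, where the groups overlapped, but another Ighm probe set read 10.86, 10.00 and 7.96 in wild type and 3.89, 4.70 and 4.74 in Myc;TTP, so the Ighm probe sets disagree.

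Of 12 tested plasma cell genes, 7 were lower without overlap and 2 higher, with a median difference of -0.42. Prdm1, which encodes the plasma cell regulator BLIMP1, was at least 1.45-fold lower, with 4.85, 5.36 and 3.41 in wild type and 2.42, 2.13 and 2.23 in Myc;TTP, where it was below log2 4. Xbp1, needed for the secretory apparatus, differed by -0.77 ± 0.31, and Fkbp11, a chaperone of the same apparatus, was higher by 1.51 ± 0.63. In bulk samples, fewer cells of a type and less RNA per cell cannot be told apart, and this holds for all the values below.

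Genes for making ribosomes were higher in Myc;TTP almost throughout. Of 49 tested ribosome biogenesis factors, 39 were higher without overlap and 0 lower, against 25.0% and 20.6% of all genes tested, and the median difference was 1.14. With all 12 arrays 0 passed, although 48 had an unadjusted limma p under 0.05. At the adjusted threshold 31 passed as higher with the 6 arrays alone, against 8.08% of all genes tested. Without wild type 3 all 49 passed as higher, against 20.7%, and the median was 1.55. Rrp12, which helps to export ribosomal subunits, read 7.42, 7.80 and 8.97 in wild type and 9.91, 9.69 and 9.60 in Myc;TTP. The difference of 1.67 ± 0.40 became 2.12 ± 0.34 without wild type 3 (limma adjusted p = 0.00609), since that array lay between its group and the Myc;TTP arrays. Nop14, a factor of the small subunit, went from 8.64, 9.05 and 9.73 to 10.64, 10.27 and 10.28. Wdr12, a partner of PES1 and BOP1 in making the large subunit, went from 9.44, 9.78 and 11.05 to 11.69, 11.60 and 11.57. Tsr1, a late factor of the small subunit, differed by 1.34 ± 0.35. As a mean over the 49 genes, the wild-type arrays stood at 9.98, 10.17 and 11.29 and the Myc;TTP arrays at 11.66, 11.61 and 11.60, so wild type 3 had covered 78.5% of the distance between its group's other arrays and Myc;TTP.

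The polymerases that transcribe ribosomal and transfer RNA followed the same order. Of 23 tested genes of RNA polymerase I and III, 16 were higher without overlap and 0 lower (median 0.71). Polr1a, the largest subunit of polymerase I, read 7.73, 7.88 and 8.96 in wild type and 9.77, 9.62 and 9.41 in Myc;TTP. Polr3d, a subunit of polymerase III, differed by 1.19 ± 0.28. The ribosomal proteins themselves differed little, with 9 of 19 higher without overlap, 0 lower and a median of 0.16. Rps6 at 0.82 ± 0.17 and Rpl14 at 1.56 ± 0.43 differed by more.

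Translation factors and the enzymes that charge tRNAs were higher as well. Among 21 translation factors 13 were higher without overlap and 0 lower (median 0.56), and among 18 aminoacyl-tRNA synthetases 13 and 0 (median 0.67). Eif4b, a cofactor of the helicase that opens mRNA leaders, read 12.07, 12.29 and 12.64 in wild type and 13.01, 12.87 and 13.01 in Myc;TTP. Yars, which charges the tyrosine tRNA, read 7.31, 7.80 and 8.51 and 9.24, 8.98 and 8.90. Without wild type 3, 18 of the 21 factors and 13 of the 18 synthetases passed, all higher, against 20.7% of all genes tested.

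Nucleotide and one-carbon enzymes gave some of the largest medians. Of 24 tested genes of polyamine and nucleotide synthesis, 19 were higher without overlap and 2, Ctps2 and Rrm2, were lower (median 0.99, and 1.33 without wild type 3). Gmps, which makes GMP, read 11.11, 11.27 and 11.80 in wild type and 12.36, 12.16 and 12.19 in Myc;TTP. Ppat, the committed step of purine synthesis, read 10.30, 10.33 and 11.51 and 12.23, 11.94 and 11.88. Dhodh, the mitochondrial step of pyrimidine synthesis, differed by 1.07 ± 0.28. All 11 tested serine and one-carbon enzymes had a positive difference, 10 without overlap (median 1.13). Shmt1, which moves a carbon from serine to folate, read 9.53, 9.06 and 10.49 in wild type and 11.30, 10.97 and 11.10 in Myc;TTP, and Mthfd1 and Mthfd2, which carry that carbon on, differed by 1.42 ± 0.36 and 1.13 ± 0.31. Amino acid transporters were mixed. Of 12 tested, 5 were higher without overlap and 0 lower, against 25.0% and 20.6% of all genes tested. In 4 the difference was negative, and the median was 0.29. The largest differences were those of the arginine and lysine carrier Slc7a1 at 1.36 ± 0.35 and the leucine carrier Slc7a5 at 1.36 ± 0.41.

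Mitochondrial genes were higher too, those of oxidative phosphorylation by less than those of import. Of 19 genes of mitochondrial import and chaperones, 17 were higher without overlap and 0 lower (median 0.93), and of 22 subunits of oxidative phosphorylation 15 and 0 (median 0.43). Trap1, the mitochondrial HSP90, read 9.57, 10.07 and 10.80 in wild type and 11.31, 11.26 and 11.51 in Myc;TTP. Timm44, which tethers the import motor, differed by 0.83 ± 0.20, and Ndufv1, a core subunit of complex I, by 0.67 ± 0.14.

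Glycolysis was less uniform. Of 17 tested genes 9 were higher without overlap and 1, the glucose carrier Slc2a3, was lower (median 0.52). Pkm, pyruvate kinase, read 10.66, 11.10 and 12.75 in wild type and 13.10, 13.17 and 13.18 in Myc;TTP in closely spaced values. Its difference was 1.64 ± 0.40, and 2.27 ± 0.16 without wild type 3 (limma adjusted p = 0.000644). Pkm was higher than in wild type by 1.44 in Eµ-TTP-1 and by 0.63 in Eµ-Myc, so for this gene the TTP group stood closer to Myc;TTP. Tpi1 and Pdk1, the latter a kinase that restrains pyruvate oxidation, differed by 1.08 ± 0.30 and 1.12 ± 0.31. In lipid synthesis 5 of 16 genes were higher and 2 lower without overlap, a share close to the 45.6% of all genes tested. Acaca, which commits carbon to fatty acids, was higher by 1.26 ± 0.35 and the desaturase Scd1 lower, at -1.39 ± 0.37.

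**Figure D3:**
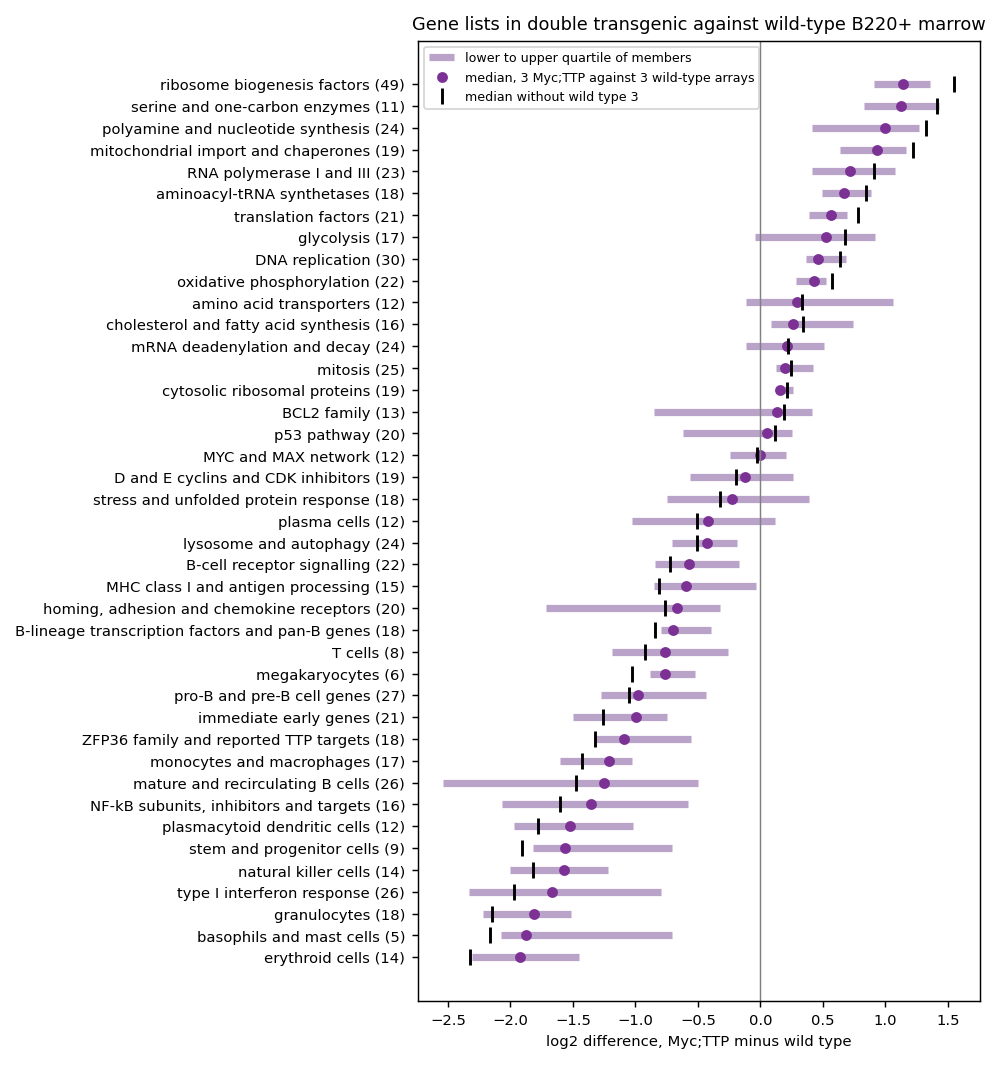
Each row is a gene list with its number of tested members. The x axis is the log2 difference, Myc;TTP minus wild type, dots are list medians, bars run from the lower to the upper quartile of the members and black ticks are medians without the array labelled wild type 3. Ribosome biogenesis has the highest median at 1.14 and erythroid genes the lowest at -1.92. The ticks of these 2 lists lie farther from 0, at 1.55 and -2.32. Without Myc;TTP 3 the erythroid median was -0.96 and not the lowest.

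Replication genes were higher, mitotic genes only slightly. Of 30 replication genes 17 were higher without overlap and 0 lower (median 0.46). Without wild type 3, 23 passed as higher, against 20.7% of all genes tested. Lig1, which joins Okazaki fragments, went from 11.61, 11.56 and 11.90 to 12.26, 12.29 and 12.32. Prim1, the catalytic primase subunit, read 11.93, 11.74 and 12.29 and 12.75, 12.54 and 12.70, and Mcm10, an initiation factor, differed by 0.91 ± 0.23. Of 25 mitotic genes 11 were higher without overlap and 0 lower (median 0.20), with Aurkb, the kinase of the chromosomal passenger complex, at 0.64 ± 0.18 and Cdk1 at 0.49 ± 0.14.

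Cyclins, their kinases and inhibitors split in both directions. Of 19 tested, Ccne1, Cdk4, E2f1 and E2f3 were higher without overlap, and Ccnd1, Ccnd2, Cdkn1a, Cdkn1b, Cdkn2d, Rb1 and Rbl2 were lower. That is 4 higher and 7 lower, against 25.0% and 20.6% of all genes tested, and the median was -0.13. The higher genes encode a G1/S cyclin, a G1 kinase and 2 activating E2F factors. Those lower include CDK inhibitors and pocket proteins, which restrain G1 exit, but also the D cyclins Ccnd1 and Ccnd2, which promote it. Ccne1 read 9.60, 9.45 and 9.79 in wild type and 10.26, 10.34 and 10.31 in Myc;TTP. Cdk4 read 11.97, 12.08 and 12.83 in wild type and 13.24, 12.99 and 12.99 in Myc;TTP, a difference of 0.78 ± 0.21 that was 1.05 ± 0.16 without wild type 3 (limma adjusted p = 0.00609).

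The Cdk4 promoter holds more copies of the E-box than that of any other gene whose sites were listed, so its sites are shown, with those of Paics and Exosc5 as genes higher in Myc;TTP and Ctsl and Atp6v0d1 as genes lower. Each line gives 30 bases, 5' to 3' on the gene's strand, from the RefSeq promoter table (GRCm38.p6, 250 bases before to 50 after the gene start), with CACGTG in capitals.
Cdk4, chr10:127063351-127063380, plus strand, 172 bases before the start: atggcagccagtCACGTGccacacagcgta
Cdk4, chr10:127063405-127063434, plus strand, 118 bases before the start: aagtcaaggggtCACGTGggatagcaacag
Cdk4, chr10:127063425-127063454, plus strand, 98 bases before the start: atagcaacaggtCACGTGgccgtcagggcc
Cdk4, chr10:127063512-127063541, plus strand, 11 bases before the start: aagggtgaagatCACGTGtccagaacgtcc
Paics, chr5:76951087-76951116, plus strand, 203 bases before the start: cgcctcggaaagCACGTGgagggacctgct
Exosc5, chr7:25659097-25659126, plus strand, 44 bases before the start: taaacgctgagcCACGTGctagggccaact
Ctsl, chr13:64370739-64370768, minus strand, 236 bases before the start: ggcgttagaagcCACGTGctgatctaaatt
Atp6v0d1, chr8:105566050-105566079, minus strand, 3 bases before the start: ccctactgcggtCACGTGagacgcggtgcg

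CACGTG reads the same on both strands, so each site was counted once. Of the tested genes 8440 had a promoter in that table and 1037 of these (12.3%) held the site. Over all promoters in the table the share was 7.15% (2349 of 32851), counted per promoter and not per gene. These shares have different units, so they do not show whether tested genes hold the site more often. Among genes higher without overlap 13.6% held it (291 of 2133), among those lower 10.8% (184 of 1703) and among those overlapping 12.2% (562 of 4604), so the shares lay close together. By list the share varied among lists of either sign, on small counts. Among lists with positive medians it was 25.6% for ribosome biogenesis factors (11 of 43), 36.4% for aminoacyl-tRNA synthetases (4 of 11) and 0% for serine and one-carbon enzymes (0 of 10). Lists with negative medians included the highest share, 42.1% for lysosome and autophagy genes (8 of 19). They also included 0% for interferon response genes (0 of 19) and for mature B-cell genes (0 of 15). A match describes the letters and is not evidence of binding.

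Partners and rivals of MYC showed few separations. Of 12 tested genes of the MYC and MAX network, Mxi1, an antagonist of MYC, was higher without overlap (0.51 ± 0.13), and Mycl and Mxd1 were lower, while Myc itself overlapped. The median was -0.0029.

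The mRNA decay side was examined through reported TTP targets and the decay machinery. Of 30 members of the ZFP36 family and reported targets, 18 were expressed enough to be tested, and of these 12 were lower without overlap and 1, Pim3, was higher (median -1.09, and -1.32 without wild type 3). Without wild type 3, 8 passed as lower and 1 as higher, against 9.35% and 20.7% of all genes tested. Tnf, the best known target of TTP, read 4.95, 4.49 and 4.50 in wild type and 2.70, 2.63 and 2.76 in Myc;TTP, below log2 4 on all 3 arrays, and was at least 1.56-fold lower. Birc3, an inhibitor of apoptosis, read 11.99, 12.41 and 11.36 and 10.39, 10.25 and 10.50. Pim3, a kinase, differed by 0.92 ± 0.29. The same list had a median of -0.995 in Eµ-Myc and -0.21 in Eµ-TTP-1 against the same wild-type arrays. Without the 4 arrays numbered 3 these were -1.39 and -0.13, and -1.10 in Myc;TTP. Of 24 genes of deadenylation and decay, 11 were higher without overlap and 0 lower (median 0.21). Several were subunits of the RNA exosome, such as Exosc5, which read 9.41, 9.54 and 10.42 in wild type and 10.83, 10.84 and 10.91 in Myc;TTP, and Exosc8 at 0.85 ± 0.18, for which another probe set had the opposite sign.

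Genes that mark stages of the B lineage were lower in Myc;TTP. Of 27 tested pro-B and pre-B cell genes 21 were lower without overlap and 0 higher (median -0.98), of 18 pan-B genes 13 and 0 (median -0.70), and of 26 genes typical of mature or recirculating B cells 20 and 0 (median -1.25), against 20.6% of all genes tested. Without wild type 3, 10, 13 and 13 of them passed, all lower, against 9.35% of all genes tested. Rag1, the recombinase of antigen receptor genes, read 14.40, 14.49 and 13.48 in wild type and 12.40, 12.44 and 12.22 in Myc;TTP. Il2ra, a cytokine receptor chain present on late pre-B cells, was at least 9.28-fold lower, from 7.62, 7.77 and 6.25 to 4.23, 3.83 and 3.50. Foxo1, which drives Rag expression, differed by -1.42 ± 0.42. Among the pan-B genes, Ebf1 and Spib, transcription factors of the lineage, differed by -0.91 ± 0.27 and -0.80 ± 0.21, and Cd79b by -0.69 ± 0.19. Pax5, Tcf3, Ikzf1, Ikzf3 and Pou2af1 overlapped between the groups.

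Mature B-cell genes showed wide gaps. Fcer2a (CD23), a low-affinity IgE receptor, read 8.97, 9.55 and 8.23 in wild type and 5.76, 5.33 and 5.21 in Myc;TTP, a difference of -3.48 ± 0.74 (11.2-fold). Cd40, the receptor for T-cell help, read 8.98, 9.34 and 8.61 and 6.42, 6.30 and 6.06, or -2.72 ± 0.53. Ms4a1 (CD20) differed by -1.10 ± 0.25 and Klf2, a factor of lymphocyte quiescence and trafficking, by -1.07 ± 0.22. MHC class II genes overlapped between the groups, with H2-Aa at -0.42 ± 0.25, H2-Ab1 at -0.08 ± 0.17 and H2-Eb1 at 0.27 ± 0.31. Receptor signalling was lower by less, with 13 of 22 genes lower without overlap, 0 higher and a median of -0.57. Malt1, a scaffold that links the receptor to NF-kB, read 9.36, 9.14 and 8.94 in wild type and 8.26, 8.30 and 8.16 in Myc;TTP, and the kinases Blk and Syk differed by -0.85 ± 0.23 and -0.68 ± 0.19.

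Markers of other marrow cells were lower at the same time. Of 18 tested granulocyte genes 14 were lower without overlap and 0 higher (median -1.81), 2 had an unadjusted limma p under 0.05, and the mean level of the list was 11.79, 12.20 and 11.27 in wild type and 10.68, 9.83 and 9.45 in Myc;TTP. The summed intensity of 12 defining granulocyte markers ran from 229429 to 320439 in wild type and from 106426 to 160739 in Myc;TTP, and none of the 12 was below log2 4 on all arrays of either group. Mmp8, a neutrophil collagenase, read 11.06, 12.08 and 10.89 and 9.56, 8.31 and 8.40. Of 12 plasmacytoid dendritic cell genes 10 were lower without overlap (median -1.52), with defining markers summing to 43490.3 to 66225 in wild type and 26344 to 32164 in Myc;TTP. Siglech, a marker of these cells, read 10.74, 11.00 and 9.45 and 8.86, 7.76 and 7.63. The sum is not particular to these cells, since it includes Spib, a pan-B gene above, at 14.79, 14.81 and 14.28 in wild type. Irf8, also on the pro-B and pre-B list, is part of it too. Monocyte genes (12 of 17 lower, median -1.21) and natural killer genes (12 of 14 lower, median -1.57) lay lower too, and no gene of these lists was higher without overlap. Of 14 erythroid genes 8 were lower without overlap, and 0 had an unadjusted limma p under 0.05. The list mean was 9.81, 9.71 and 8.59 in wild type and 8.50, 8.33 and 6.00 in Myc;TTP, so the array Myc;TTP 3 lay well below the other two. The median of -1.92, the lowest of all lists, became -0.96 without that array, and was then no longer the lowest. Of their defining markers Hba-a1 was below log2 4 in both groups. The defining B-lineage markers summed to 109089 to 152719 in wild type and to 75892 to 84056 in Myc;TTP. The part of these cell types in the lower B-cell, interferon and NF-kB genes was not tested.

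Of the defining T-cell markers, Cd3e, Cd3g and Cd4 were below log2 4 in both groups. The summed intensity of the 5 defining markers on the array, these 3 with Cd8a and Thy1, ran the other way from the sums above. It was 104 to 171 in wild type and 181 to 228 in Myc;TTP. Of the 2 defining markers tested, 0 were lower without overlap and 1, Cd8a, was higher. Thy1 overlapped and differed by -1.68 ± 0.72, so the higher sum goes with Cd8a and not with T-cell markers in general. Of 8 tested T-cell genes Cd3d, Cd2 and Cd28 were lower without overlap and 1 was higher, 7 had a negative difference, and the median was -0.76 (-0.48 without wild type 2). Cd28, a costimulatory receptor, differed by -1.67 ± 0.46 and Cd2, an adhesion receptor, by -1.02 ± 0.33. Cd2 read 11.11, 11.55 and 10.60 in wild type, far above Cd3e, Cd3g and Cd4, and which cells it came from was not tested. The higher gene was Cd8a, a coreceptor chain, which went from 5.15, 5.94 and 6.67 in wild type to 7.36, 7.15 and 7.56 in Myc;TTP, a difference of 1.44 ± 0.33. Of 6 megakaryocyte genes, 0 separated the groups, and all 6 differences were negative. Stem and progenitor genes (4 of 9 lower without overlap) and basophil and mast cell genes (3 of 5) had medians of -1.56 and -1.87, and that of the former was -0.86 without Myc;TTP 3. Their defining markers below log2 4 on all Myc;TTP arrays were Cd34 for the former, and Fcer1a and Ms4a2 for the latter.

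**Figure D4:**
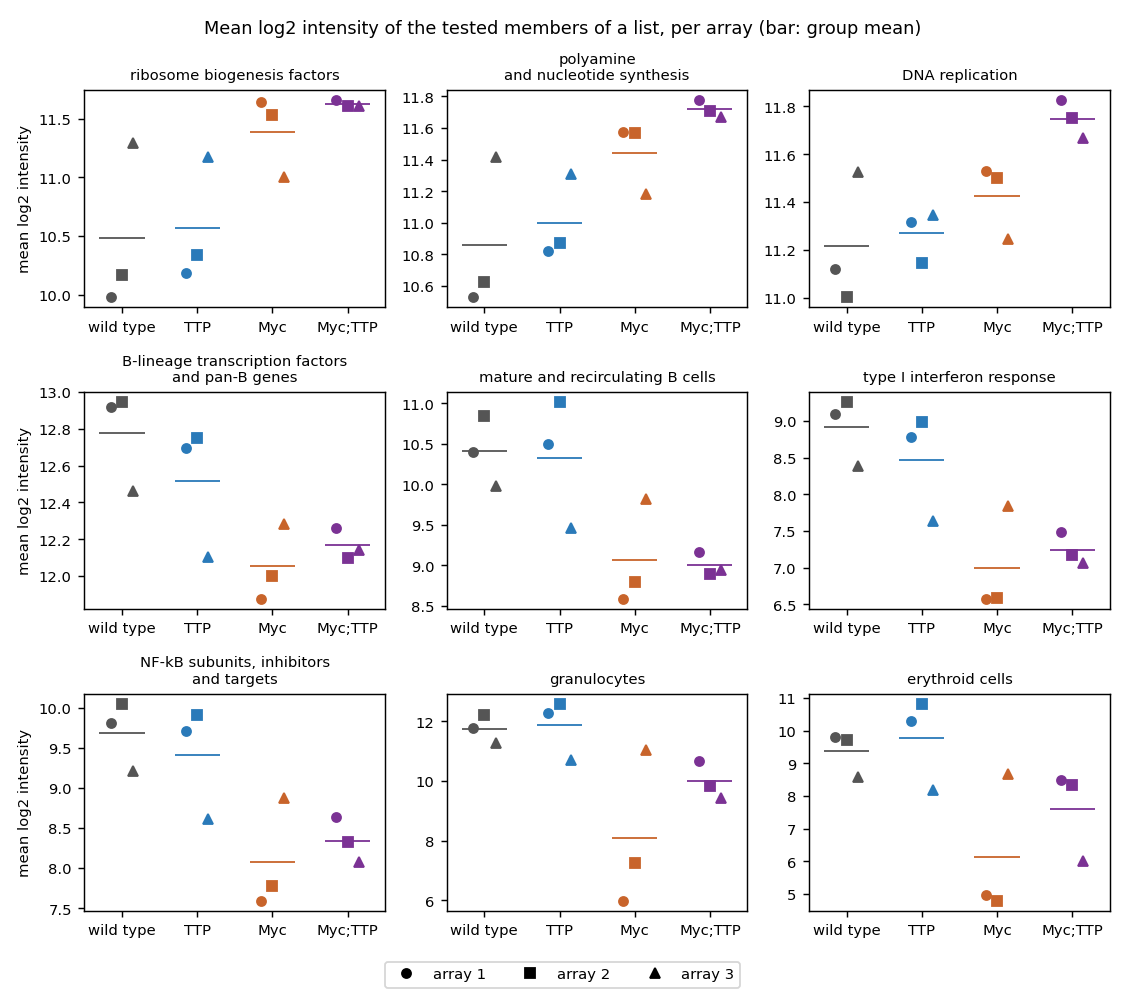
Each panel shows 1 gene list. The y axis is the mean log2 intensity of its tested members, points are single arrays (circle, square and triangle for arrays 1, 2 and 3) and bars are the means of the 4 groups. In growth lists the Myc;TTP arrays lie above the wild-type arrays, in B-cell, interferon and granulocyte lists below them, and the arrays numbered 3 of wild type and TTP lie towards Myc;TTP.

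Interferon response genes were lower as a group. Of 26 tested genes of the type I interferon response, 23 were lower without overlap and 0 higher (median -1.67). With the 6 arrays alone 19 passed, and without wild type 3 also 19, all lower, against 10.5% and 9.35% of all genes tested. Mx1, an antiviral GTPase, read 8.46, 8.62 and 7.72 in wild type and 6.03, 5.30 and 2.89 in Myc;TTP, a wide spread within the latter group. Ifit3 was at least 4.75-fold lower, from 6.52, 6.70 and 5.52 to 3.58, 2.59 and 3.00. Trim30d, another interferon-inducible gene, read 9.75, 9.96 and 8.84 and 6.28, 6.82 and 6.20. Ifi30, a lysosomal thiol reductase, read 12.29, 12.65 and 12.13 and 11.56, 11.23 and 11.55. Socs1, the feedback inhibitor of JAK signalling, was at least 3.26-fold lower, from 5.86, 6.48 and 4.77 to 3.38, 3.58 and 3.37.

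NF-kB and early response genes were lower as well. Of 16 tested NF-kB subunits, inhibitors and targets, 12 were lower without overlap and 0 higher (median -1.35). Nfkbie, an inhibitor that is itself a target, read 11.91, 11.78 and 10.84 in wild type and 9.42, 9.72 and 8.98 in Myc;TTP, and Nfkbid and Nfkbiz, nuclear IkB proteins, differed by -1.72 ± 0.41 and -2.76 ± 0.70. Of 21 immediate early genes 16 were lower without overlap and 1, Nr4a2, was higher (median -0.99). Egr3, a zinc-finger factor induced by receptor signals, was at least 9.43-fold lower, from 7.31, 7.78 and 6.62 to 3.74, 3.76 and 3.94. Btg1, an antiproliferative gene of resting lymphocytes, read 14.26, 14.15 and 13.73 in wild type and 12.57, 12.39 and 12.37 in Myc;TTP. Dusp2, a MAP kinase phosphatase, differed by -1.36 ± 0.30.

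Antigen presentation on MHC class I was partly lower. Of 15 genes 7 were lower without overlap and 1, the peptidase Erap1, was higher (median -0.59, and -0.39 without Myc;TTP 3). B2m, the shared light chain, read 15.06, 15.08 and 14.96 in wild type and 14.29, 14.38 and 14.09 in Myc;TTP. H2-D1 and Tapbp, which loads peptide, differed by -0.95 ± 0.22 and -0.88 ± 0.24, while the immunoproteasome genes Psmb8, Psmb9 and Psmb10 overlapped.

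In the BCL2 family and the p53 pathway the share of genes without overlap was close to or below the 45.6% of all genes tested. Of 13 BCL2 family genes, Bid and Bcl2l11 were higher without overlap, and Bcl2, Bcl2l1, Mcl1 and Bmf were lower, 6 in all. Bcl2l11 (BIM), which promotes apoptosis, read 9.39, 9.63 and 9.91 in wild type and 10.45, 10.31 and 10.29 in Myc;TTP. Bcl2l1 and Mcl1, which protect from it, differed by -1.49 ± 0.43 and -0.85 ± 0.26, and Bmf, a further promoter, read 7.23, 8.55 and 7.50 and 5.13, 5.15 and 5.21. The p53 pathway had a median near 0 (0.052). Of 20 genes Aen, Ei24 and Gtse1 were higher without overlap, and Mdm2, Cdkn1a, Trp53inp1, Btg2 and Rrm2b were lower. Aen, a nuclease of that pathway, differed by 1.00 ± 0.27 and Mdm2, the ligase for p53, by -0.71 ± 0.25. Stress and unfolded protein genes went both ways, with 6 of 18 higher and 6 lower without overlap, against 25.0% and 20.6% of all genes tested. Of their differences 7 were positive and 11 negative (median -0.23).

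Lysosomal and homing genes were lower by moderate amounts. Of 24 lysosome and autophagy genes 13 were lower without overlap and 0 higher (median -0.43, and -0.26 without wild type 2), and of 20 homing, adhesion and chemokine receptors 13 and 0 (median -0.67). Ctss, a cathepsin of antigen-presenting cells, read 12.55, 12.83 and 12.23 in wild type and 11.34, 11.50 and 11.71 in Myc;TTP. Ctsl, whose promoter sequence is shown above with its E-box, read 11.05, 11.35 and 9.98 and 9.13, 8.75 and 8.92. Atp6v0d1, a subunit of the lysosomal proton pump, differed by -0.62 ± 0.18. Cxcr4, the receptor that keeps B-cell precursors in the marrow, read 13.65, 13.50 and 13.11 and 12.54, 12.64 and 12.38.

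Genes ranked first by p, whatever their list, were of mixed function. Htatsf1, a splicing and transcription cofactor, had little spread, from 10.85, 10.84 and 10.83 in wild type to 11.60, 11.57 and 11.49 in Myc;TTP. B9d1, a protein of the ciliary transition zone, went from 5.74, 5.56 and 6.59 to 7.35, 7.32 and 7.60. Snupn, which imports spliceosomal particles into the nucleus, differed by 0.97 ± 0.18, Sympk, a scaffold of mRNA 3' end processing, by 0.78 ± 0.15, and Tsen54, a subunit of the tRNA splicing endonuclease, by 1.42 ± 0.28. Rad50, a DNA repair protein, differed by 0.78 ± 0.16, and Pisd, which makes a mitochondrial phospholipid, by 0.72 ± 0.13.

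On the lower side, Gas7 read 9.56, 9.64 and 8.19 in wild type and 3.91, 3.92 and 3.69 in Myc;TTP, at least 35.0-fold lower, and its other 3 probe sets had the same sign. Cd209d, a lectin receptor gene, read 2.48, 2.51 and 2.64 in Myc;TTP, below log2 4 on all 3 arrays, and was at least 10.5-fold lower than in wild type. Zbtb4, a zinc-finger repressor, read 10.15, 10.24 and 9.40 in wild type and 7.27, 7.76 and 7.31 in Myc;TTP. Srpk3, a kinase of splicing factors, differed by -2.89 ± 0.57 and Clcf1, a cytokine of the interleukin-6 family, by -2.56 ± 0.51.

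The single transgenic groups were set against the same 3 wild-type arrays. The arrays labelled wild type 3 and TTP 3 read Myc at levels of transgenic arrays, so each median is given with all arrays and without the 4 arrays numbered 3. For ribosome biogenesis factors the median was 0.90 in Eµ-Myc, 0.10 in Eµ-TTP-1 and 1.14 in Myc;TTP, and 1.45, 0.19 and 1.50 without those arrays. For polyamine and nucleotide synthesis it was 0.76, 0.14 and 0.99 in the same order, and 1.30, 0.28 and 1.29 without them, so the gap between Eµ-Myc and Myc;TTP was gone. For DNA replication it was 0.16, 0.044 and 0.46, and 0.38, 0.17 and 0.68. Mature B-cell genes had medians of -0.78, -0.11 and -1.25, and -1.12, 0.14 and -1.46, so the sign in Eµ-TTP-1 depended on those arrays. The interferon response had -1.61, -0.49 and -1.67, and -2.30, -0.32 and -1.70, so the order of Eµ-Myc and Myc;TTP turned. Granulocyte genes had -4.08, 0.029 and -1.81, and -6.00, 0.42 and -1.79. The mean level of the granulocyte list was 5.97, 7.25 and 11.05 in Eµ-Myc and 12.27, 12.60 and 10.72 in Eµ-TTP-1, so Myc 3 stood near wild type 3 (11.27) and TTP 3 below its group. Against wild type, 1135 genes (11.0%) passed in Eµ-Myc and 0 in Eµ-TTP-1 in the same limma fit, where 149 (1.45%) had an unadjusted p under 0.05 in the latter. Set directly against Eµ-Myc or Eµ-TTP-1, Myc;TTP differed in 0 genes at the adjusted limma threshold, with 1966 (19.1%) and 3707 (36.0%) under an unadjusted p of 0.05. For Jchain those differences were -1.74 (limma adjusted p = 0.205) and -2.49 (0.0607).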

How the data were processed

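Total RNA was measured on 1 Affymetrix MOE430 2.0 array per sample. The authors deposited linear intensity values per probe set, made with GCRMA (no version stated) per the submitters' processing notes. This method normalizes between arrays, so a change in total RNA per cell is not visible. Intensity ran from 1.73 to 120125, and 46.0% to 48.7% of probe sets on an array were above log2 4. The number of arrays limits the precision.

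Of 45101 probe sets, 34958 had a single symbol, 932 several and 9211 none, and 34754 were matched to RefSeq (GRCm38.p6). The tests used log2 values in limma 3.58.1 under R 4.3.3 (lmFit, eBayes with trend, 4 group means, 12 arrays, 8 residual degrees of freedom). Tests were two-sided with Benjamini-Hochberg adjustment over 10287 genes at 0.05, and the fit was tested on simulated data. Below log2 4, a difference is a bound against that floor.

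The 41 lists (849 distinct genes, 729 tested) and the members were chosen with earlier results of these data known. Named genes are Myc, the Zfp36 family, Cd79a, Ptprc, Pkm, the 15 called genes of largest difference in each direction without overlap (filled up by smallest p), and the 4 of smallest p in each list. The 15 leave out antibody, T-cell receptor, Y-linked and unnamed genes, Xist and Tsix. Other X-linked genes were kept, such as Htatsf1 and Srpk3. Igha, Ighm, Fkbp11, Pim3, Nr4a2, the MHC class II genes, genes that make up small counts, genes named as overlapping and those whose promoters are shown were chosen after their values were seen. Alternatives changed the filter, probe set, scaling, offset, arrays, variance model, replicate block and threshold. Medians of the single transgenic groups without the arrays numbered 3 were added after seeing the data.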

Additional observations from a re-analysis of the deposited data

How the results depend on the processing

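The count of genes past the threshold depended on the setting. Instead of 1 gene, 0 were called with no filter on low values, with a common median, with no intensity trend and with an adjusted p under 0.01. Testing every probe set gave 2, an unmoderated linear model 5 (none of them a named gene or list member), a floor of log2 6 gave 1444, the 6 arrays alone 1915, leaving out wild type 3 and TTP 3 gave 4518 and leaving out the 4 arrays numbered 3 gave 4846. Leaving out 1 array at a time gave 0 to 3091 genes, the largest counts being without wild type 3 (3091), TTP 3 (2912) and Myc 3 (1625). The count was 0 without any single Myc;TTP array and without wild type 1, wild type 2, TTP 1 or Myc 2. Among the named genes the counts were 0 with no filter, common median, no trend and the unmoderated model, 141 at the floor of 6, 159 with the 6 arrays, 172 and 179 without the 2 or 4 arrays numbered 3, and 0 to 161 leaving out 1 array. Among list members they were 0, 218, 325, 475 and 521 in the same order, and 0 to 384.

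The replicate numbers were not taken as pairs: residuals of same-numbered wild-type and Myc;TTP arrays correlated at 0.230, -0.0554 and 0.331, and wild type 2 correlated best with Myc;TTP 1 (0.327). With the replicate block, 0 genes, named genes and list members passed over 12 arrays, and 2766, 171 and 415 over the 6 arrays. Jchain was called in 13 of 25 alternatives, with adjusted p from 3.51e-05 to 0.208. Of 3492 values of 139 genes followed under the alternatives, 3491 kept their direction. The exception was H2-Ab1, which ran from -0.256 to 0.0722 when 1 array was left out, the latter without Myc;TTP 2. Of 1025 list medians 19 moved by more than the spread between arrays. Probe sets below log2 4 limit the folds of low genes to bounds.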
